A study of Drosophila melanogaster with 3 samples.

Results

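The genes described here are 30 named genes of the Drosophila melanogaster cell cycle and of DNA replication, chosen by name out of 18164 annotated genes. They fall into 7 roles, among them 12 genes of replication licensing, the sliding clamp gene PCNA, 5 cyclins and 2 cyclin-dependent kinases (CDKs). The others are 3 mitotic kinases, 4 regulators of CDK activity, and 3 E2F and retinoblastoma genes (E2f1, Dp and Rbf). The measurement was chromatin immunoprecipitation with sequencing of the protein CG31627, in 3 biological replicates of a single group. The animals were whole white prepupae, males and females together, at the onset of metamorphosis, from 1 transgenic line that expressed CG31627 with GFP at its C-terminus. The precipitation used an antibody to GFP, although another label names the antibody after CG31627. Control data were not analysed here, and with a single group the data allow no test between conditions.

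DNA is replicated once per cell cycle because origins are licensed in G1, when the origin recognition complex and dup (the fly Cdt1) load the Mcm helicase, and are blocked afterwards by geminin and by CDK activity. Cyclins and CDKs then drive entry into S phase and mitosis, polo and the Aurora kinases act in mitosis, and fzy and fzr direct the anaphase-promoting complex to its substrates. The heterodimer of E2f1 and Dp, held in check by Rbf, drives transcription of many S phase genes in flies. In prepupae, precursor cells of the adult lie beside larval tissues, many of them polyploid, so whole animals mix cells in different states of the cycle. A site occupied weakly in many cells and a site occupied strongly in few cannot be told apart in such material.

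The 3 library lists held 25547 to 30000 peaks on the 6 chromosome arms, background included by design. Calls were taken from the authors' IDR-thresholded list, the 7717 peaks of the pooled libraries that met their limit on the irreproducible discovery rate (IDR). A gene carried a promoter peak where a summit in that list lay within 500 bp of any of its start sites. In each library, the 7717 peaks with the highest signal served for comparison. Ranks are by the authors' signal value within a list, with 1 the strongest. No read counts were in the lists, and depth is therefore unknown.

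CG31627 had a promoter peak at 16 of the 30 genes (53.3%). The background was 4048 of 18164 genes (22.3%), or 3681 of 13945 protein-coding genes (26.4%). Among the strongest peaks of replicates 1, 2 and 3 the count was 14, 14 and 19 genes (mean 15.7 ± 2.89, SD, n = 3), where the background was 22.4%, 20.5% and 23.1% of all genes. Of the 16 genes, 11 were counted in every library, 4 in 2 libraries and 1, E2f1, in replicate 1 alone. The share lay above the background in each library. The median rank of the 16 peaks was 3920.5, against 3077.5 over all genes with a promoter peak. At 9 of the 14 remaining genes no library had a promoter summit among its strongest peaks, and at 5 exactly 1 library did.

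**Figure D1:**
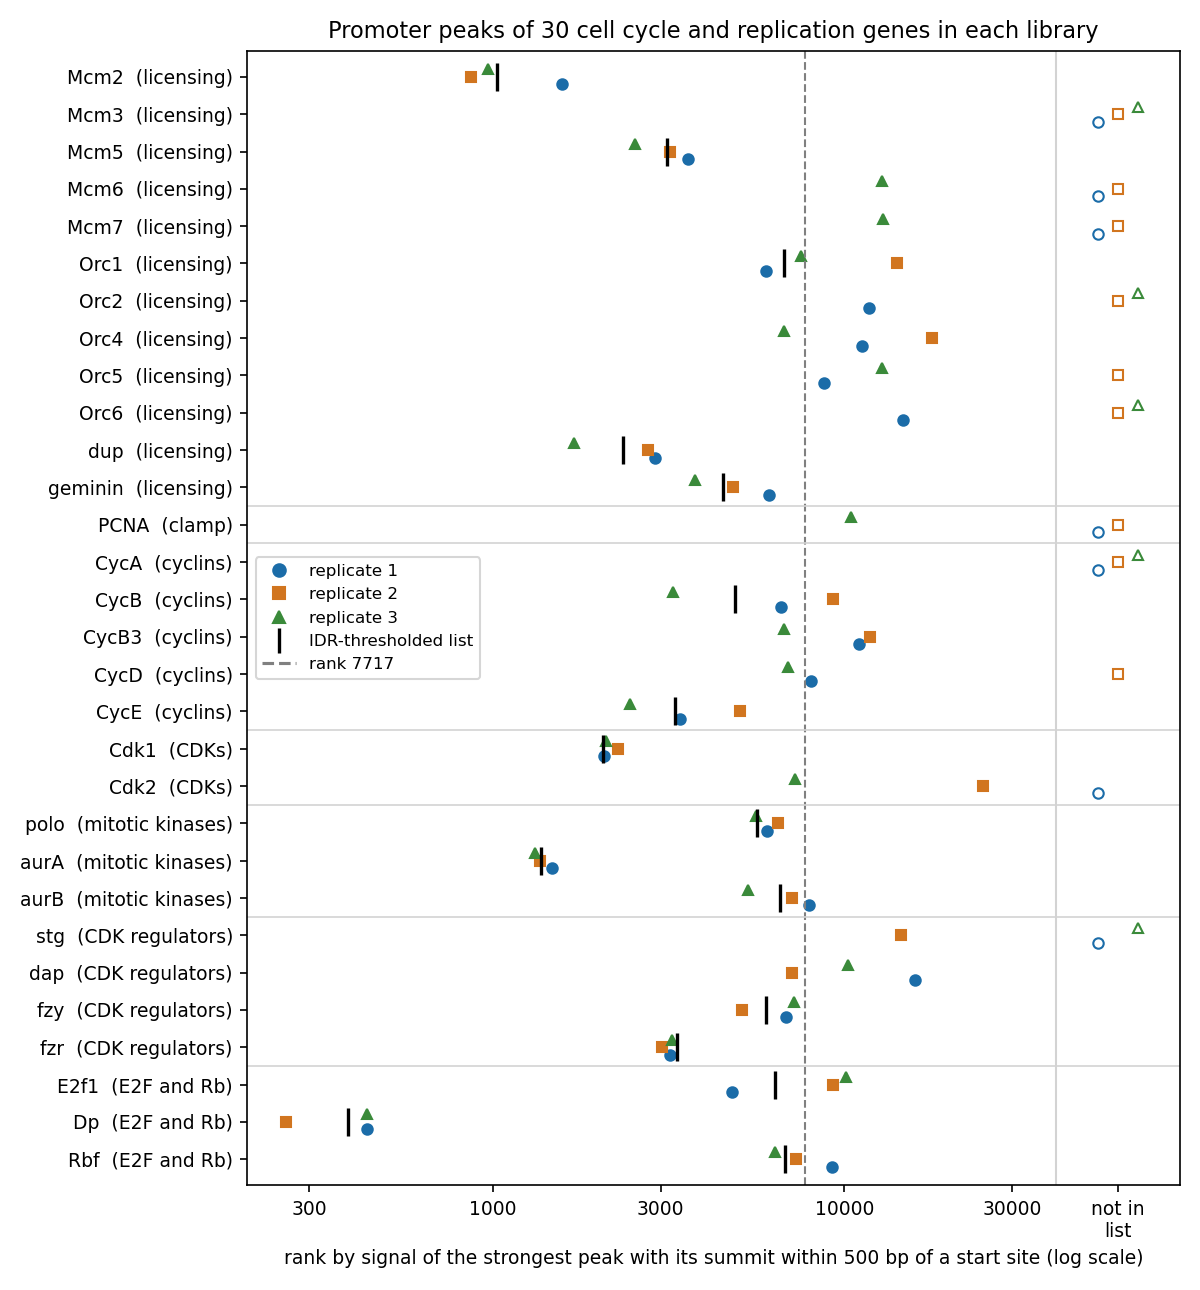
Rank by signal of the strongest peak within 500 bp of a start site for each of the 30 genes (log axis, strongest at left), by library. Black bars mark the rank in the IDR-thresholded list, the dashed line is rank 7717, and open symbols at right mark libraries with no peak in the window. Dp, Mcm2 and aurA stand at the left in all 3 libraries, and Mcm3 and CycA have no peak in any.

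Sequences are shown for the genes on 2L, 3R and X with the strongest CG31627 promoter peaks. Genes on other arms are not shown here, among them dup and Dp, which had the strongest promoter peak of the 30 genes. Each window is 101 bases centred on the summit, on the strand of the gene, from the RefSeq Release 6 genome (dm6). The Mcm2 window is chr3R:8264832-8264932 on the plus strand and the aurA window chr3R:11962969-11963069 on the plus strand. The Mcm5 window is chr3R:10788256-10788356 on the plus strand and the fzy window chr2L:16310802-16310902 on the plus strand. The Cdk1 window is chr2L:10386430-10386530, the CycE window chr2L:15746963-15747063 and the fzr window chrX:4679906-4680006, all on the minus strand. Cdk2, on the plus strand at chr3R:20735515-20735615, is shown for contrast: it had the highest pooled rank of the genes without a promoter peak (7740), and its window is centred on that summit. Capitals mark matches to 6 motifs searched on both strands: the DNA replication-related element (DRE, TATCGATA), the core of the BEAF-32 motif (CGATA), the E2F site (TTTGGCGC, TTTCCCGC, TTTGCCGC or TTTCGCGC), the cell cycle homology region (CHR, TTTGAA), Ohler motif 7 (CAGCNCTA or CATCNCTA) and Ohler motif 1. Every DRE contains the BEAF core. The polo window, within a 5′ UTR, is also left out.
Mcm2: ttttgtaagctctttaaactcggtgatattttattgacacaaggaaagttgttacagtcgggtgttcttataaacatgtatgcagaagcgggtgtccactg
aurA: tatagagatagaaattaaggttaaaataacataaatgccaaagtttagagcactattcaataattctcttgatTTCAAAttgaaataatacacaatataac
Cdk1: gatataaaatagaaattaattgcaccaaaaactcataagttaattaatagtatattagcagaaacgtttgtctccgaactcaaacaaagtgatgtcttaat
Mcm5: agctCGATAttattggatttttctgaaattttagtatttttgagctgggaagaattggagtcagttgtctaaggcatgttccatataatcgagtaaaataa
CycE: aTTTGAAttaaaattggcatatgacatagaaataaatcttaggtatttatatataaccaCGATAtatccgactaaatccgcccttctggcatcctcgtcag
fzr: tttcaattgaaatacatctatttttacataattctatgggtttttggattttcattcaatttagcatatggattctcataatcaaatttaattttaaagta
fzy: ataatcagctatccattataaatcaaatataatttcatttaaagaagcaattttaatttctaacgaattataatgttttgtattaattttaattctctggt
Cdk2: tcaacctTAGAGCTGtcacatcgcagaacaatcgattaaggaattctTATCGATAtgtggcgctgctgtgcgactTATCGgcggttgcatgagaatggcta

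The windows of Mcm2, Cdk1, fzr and fzy held none of the 6 motifs. CHR matched in aurA and CycE, the BEAF core in Mcm5 and CycE, and the DRE, the BEAF core and Ohler motif 7 in Cdk2. Bases were A or T in 61.4% of the Mcm2 window and 81.2% of the fzy window, the ends of the range over the 7 windows with a promoter peak, and in 53.5% of the Cdk2 window. Over the windows of all 16 genes the share was 64.9%, next to 64.4% at all 3223 promoter summits.

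Among the 12 licensing genes, 5 carried a promoter peak (41.7%), and the library lists gave 5, 4 and 6 (mean 5.0 ± 1.0, SD, n = 3). They were split within each complex: 2 of the 5 Mcm genes, 1 of the 5 origin recognition complex genes, and both regulators of loading, dup and geminin. Mcm2, a subunit of the replicative helicase, had the strongest peak of the group, at rank 1028 with a signal of 526.5. Its ranks in replicates 1, 2 and 3 were 1571, 865 and 966. The peak spans 3R 8264733 to 8265025, with its summit 88 bp upstream of the start site. That peak also lies within 500 bp of the start of RPA1, a subunit of the single-strand DNA-binding protein of the fork, 431 bp from the summit.

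Mcm5, another helicase subunit, ranked 3131 (3597, 3191 and 2540 in replicates 1, 2 and 3) with a summit 218 bp upstream, on 3R from 10788104 to 10788507. The start of Art1, an arginine methyltransferase gene, was nearer to that summit, at 80 bp. A weaker Mcm5 summit at rank 7330 lay 15 bp upstream of the start. Mcm3, Mcm6 and Mcm7 carried no promoter peak. Mcm3 had no peak in any library within the window, and Mcm6 and Mcm7 had one in replicate 3 alone, at ranks 12823 and 12884. The nearest IDR-thresholded summits lay 1164, 3854 and 9661 bp from their start sites. The Mcm3 one, at rank 1301 (1849, 1424 and 920), lay 5 bp from the start of its neighbour Rnp4F.

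The regulators of loading had peaks in the strongest list of every library. The dup gene, whose product brings the helicase to origins, ranked 2337 (2887, 2752 and 1700), with its peak on 2R from 15380586 to 15380792. Its summit lay in a 5′ UTR, 94 bp upstream of an internal dup start and 280 bp downstream of the first, and 16 bp from the start of the kinase gene SRPK. A second dup summit ranked 3301. The gene geminin, which encodes the inhibitor of dup, ranked 4501 (6085, 4822 and 3746) with a summit in a 5′ UTR, 33 bp upstream of an internal start and 160 bp downstream of the first, on 2R from 6656358 to 6656474.

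Of the origin recognition complex genes, Orc1, which encodes the largest ATPase subunit, ranked 6749 with a summit 26 bp upstream (2R from 7525540 to 7525943). Its ranks were 5986, 14119 and 7529, so replicate 2 stood apart, outside its strongest peaks. Orc2, Orc4, Orc5 and Orc6 had no promoter peak. Orc4 had a summit in the window in all 3 library lists, at ranks 11237, 17748 and 6716, and Orc5 in replicates 1 and 3, at 8760 and 12781. Orc2 and Orc6 had one in replicate 1 alone, at 11767 and 14704. In the pooled list Orc4 (rank 8446, q = 0.000414) and Orc5 (rank 12832, q = 0.0456) passed the authors' q value at 0.05 without passing the IDR threshold. Of all genes, 31.3% passed that q value, a share that includes the 22.3% with an IDR-thresholded promoter peak. PCNA, the clamp that holds the polymerase on DNA, had a summit in the window in replicate 3 alone (rank 10417), and its nearest IDR-thresholded summit lay 1101 bp upstream, 5 bp from the start of the ribosomal protein gene RpS18.

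**Figure D2:**
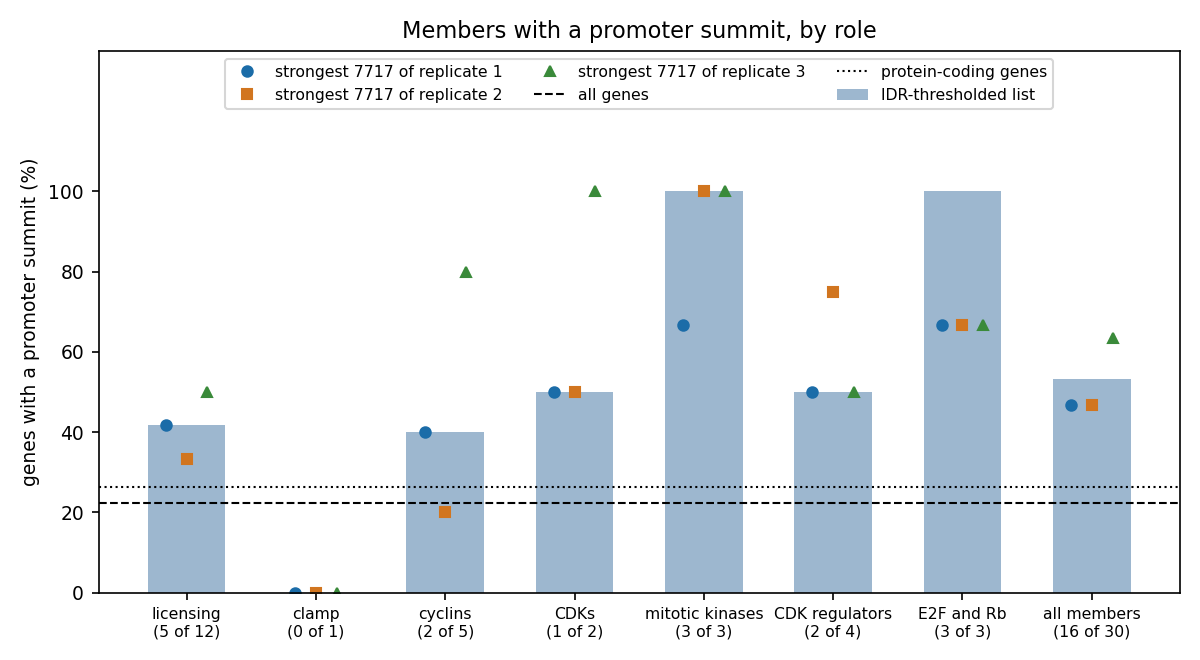
Share of genes with a promoter peak (%) in each of the 7 roles and over all 30 genes, with bars for the IDR-thresholded list, points for the strongest 7717 peaks of each library, and horizontal lines for all genes (dashed, 22.3%) and protein-coding genes (dotted, 26.4%). All 3 mitotic kinases and all 3 E2F and retinoblastoma genes are counted in the IDR-thresholded list, against 5 of 12 licensing genes and 2 of 5 cyclins.

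All 3 mitotic kinase genes carried a promoter peak, and 2, 3 and 3 did in replicates 1, 2 and 3 (mean 2.67 ± 0.577, SD, n = 3). The Aurora A gene aurA, whose kinase acts at centrosomes and in spindle assembly, ranked 1367 with a signal of 443.5. Its library ranks of 1474, 1364 and 1319 were close together. The peak spans 3R 11962819 to 11963179, 105 bp upstream of the aurA start and 214 bp from the start of CG3281. The aurA site thus ranked well above those of the other kinases. The Polo kinase gene polo ranked 5631 (6030, 6464 and 5615), on 3L from 20309739 to 20310142, in a 5′ UTR, 106 bp upstream of an internal start and 287 bp downstream of the first. The Aurora B gene aurB, for the kinase of the chromosomal passenger complex, ranked 6570, 160 bp upstream of its start on 2L from 10858052 to 10858455. Its ranks were 7949, 7076 and 5317, and replicate 1 fell outside the strongest peaks.

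Among the 5 cyclins, CycE and CycB carried a promoter peak, and the libraries gave 2, 1 and 4 (mean 2.33 ± 1.53, SD, n = 3), the widest relative spread of the roles with more than 1 gene. CycE, the cyclin of S phase entry, ranked 3286 (3412, 5046 and 2458). Its summit lay 403 bp upstream of an internal start site, in an intron of the longer transcripts (2L from 15746936 to 15747102). CycB, a mitotic cyclin, ranked 4893 with its summit 107 bp upstream, on 2R from 22806853 to 22807256. The libraries differed there: ranks were 6604, 9263 and 3246, with replicate 2 outside its strongest peaks.

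CycA, the other S phase and mitotic cyclin, had no summit in the window in any library, and its nearest IDR-thresholded summit was 10750 bp away. CycB3, a further mitotic cyclin, ranked 11013, 11833 and 6741 in the libraries. CycD, the partner of Cdk4 in growth and cell cycle entry, ranked 8053 and 6920 in replicates 1 and 3 and had no peak in replicate 2. For both, replicate 3 alone put them among its strongest peaks, and both passed the q value in the pooled list (0.00191 for CycB3 and 0.000502 for CycD).

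The CDK genes differed from each other. Cdk1, the mitotic kinase, ranked 2050 with a signal of 337.5 and close library ranks of 2066, 2266 and 2096. Its summit lay 218 bp upstream on 2L from 10386387 to 10386568, and nearer, at 182 bp, to the start of mRpS7, a mitochondrial ribosomal protein gene. Cdk2, the partner of cyclin E, had no promoter peak. Its summit ranked 7227 in replicate 3, 24752 in replicate 2 and was missing from replicate 1. In the pooled list it ranked 7740 (q = 0.000194), just past the 7717 peaks of the IDR-thresholded list.

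Of the 4 regulators of CDK activity, fzr and fzy carried a promoter peak. The libraries gave 2, 3 and 2 genes. The activator gene fzr, known from mitotic exit and endocycles, ranked 3340 (3182, 3022 and 3222) with its summit 419 bp upstream, on X from 4679754 to 4680157. The activator gene fzy, the fly Cdc20, ranked 5963 (6819, 5094 and 7175), on 2L from 16310650 to 16311053, 104 bp upstream and 126 bp from the start of cni. The CDK inhibitor gene dap had summits in all 3 lists at ranks 15899, 7086 and 10229, so that replicate 2 alone counted it. The Cdc25 phosphatase gene stg, which triggers mitosis by activating Cdk1, lay just outside the window. A strong IDR-thresholded summit, rank 385 (403, 251 and 491 in the libraries), lay 524 bp upstream of stg on 3R from 29256156 to 29256494, and 161 bp from the start of CG45544. A further summit at rank 2351 lay 1166 bp upstream of stg.

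All 3 genes of the E2F and retinoblastoma group carried a promoter peak, while each library counted 2 of them. Dp, the dimer partner of E2F, had the strongest promoter peak of the 30 genes, at rank 386 with a signal of 924.7. Its library ranks were 438, 258 and 438. The summit lay in an intron 222 bp upstream of an internal start, on 2R from 13223195 to 13223546. Dp also had further promoter summits at ranks 2640, 3062 and 4328, which makes 4 in all. At least 4 promoter summits occurred at 12 of 4048 genes with a promoter peak (0.296%), Dp itself among them. Dp has 3 start sites and so several windows. The rank 2640 summit lay nearer to the start of Fsn (43 bp) than to that of Dp (52 bp). The rank 4328 summit lay nearer to the start of lncRNA:CR43918 (418 bp) than to a Dp start (442 bp).

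E2f1, the activating E2F, ranked 6346 with a summit 320 bp upstream of an internal start on 3R from 21633191 to 21633594. Its library ranks were 4781, 9264 and 10070, with replicate 1 alone inside its strongest peaks, and the strongest library summits in the window lay at other positions. Rbf, the fly retinoblastoma protein that represses E2F targets, ranked 6792 with a summit 267 bp upstream, on X from 801544 to 801947. Its ranks of 9226, 7297 and 6354 put replicate 1 outside.

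**Figure D3:**
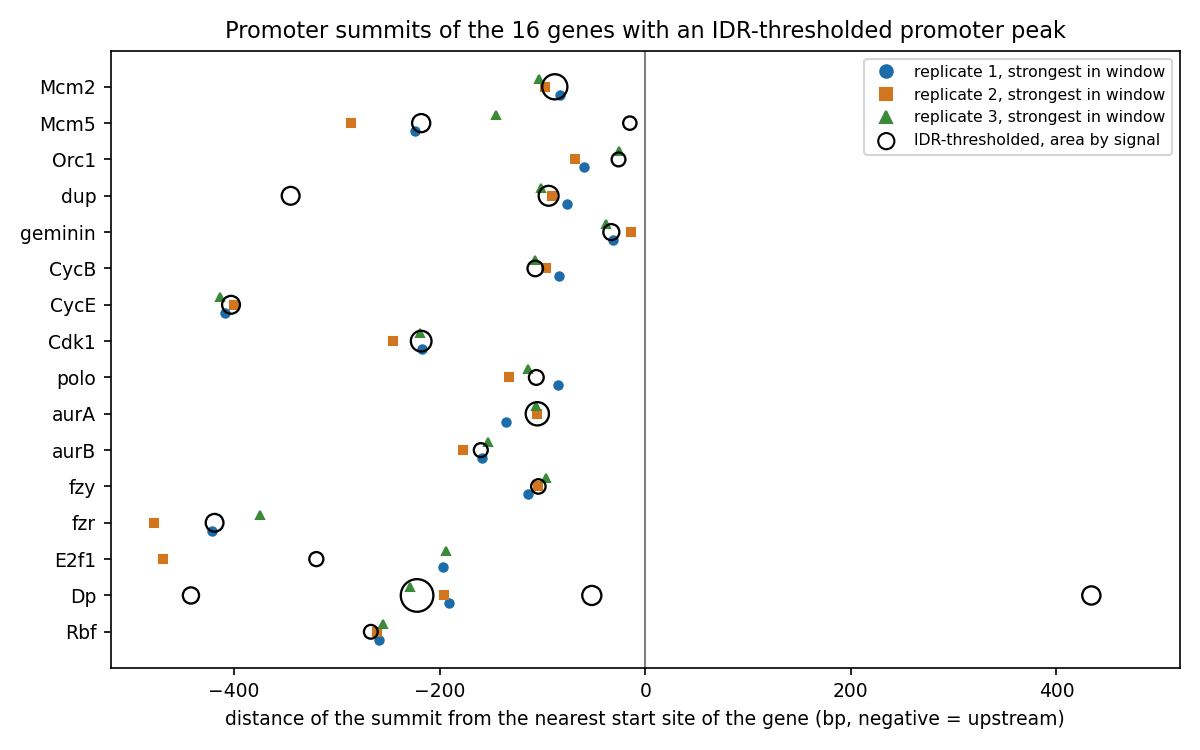
Distance of promoter summits from the nearest start site of the gene (bp, negative upstream) for the 16 genes with a promoter peak. Circles are IDR-thresholded summits with area by signal, and filled symbols are the strongest summit in the window in each library. The strongest circle of every gene lies upstream of its nearest start, between 26 and 419 bp from it, and at E2f1 the library symbols lie apart from the circle.

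The strongest promoter summit lay upstream of the nearest start site of the gene at all 16 genes, and that start was an internal one at 6 of them. Of all genes with a promoter peak, 86.5% had the summit upstream. The median distance was 133.5 bp, next to 145 bp over all such genes. At 3 of the 16 genes (18.8%), namely Cdk1, dup and Mcm5, the start of another gene lay nearer to the summit, against 29.3% of all genes with a promoter peak. At 7 of the 16 (43.8%) another gene started within 500 bp of the summit, against 59.5%.

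The share with a promoter peak was larger where another gene started close by, among the 30 genes and among protein-coding genes at large. Another gene started within 500 bp of a start site at 12 of the 30 genes, and 9 of these 12 (75.0%) carried a promoter peak, next to 45.9% of protein-coding genes with such a neighbour. Without one, 7 of 18 genes (38.9%) carried a peak, next to 16.1% of protein-coding genes. More than 1 annotated start site was present at 8 of the 16 genes with a peak and 2 of the 14 without, and at 42.7% and 20.7% of protein-coding genes with and without. More start sites give more windows in which a summit can fall. The 31-mers around the start sites were unique in the genome for 99.6% or more at each of the 30 genes.

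Away from promoters, CycE and E2f1 alone among the 30 genes (2 of 30) held IDR-thresholded summits within the gene, where the background over all genes was 8.69%. All 12 of these summits were intronic. CycE, a gene of 20570 bp, held the strongest peak at any of the 30 genes. It ranked 176 with a signal of 1267, and 188, 159 and 205 in the libraries, 4369 bp from the first start site on 2L from 15743522 to 15743967. A weaker CycE summit, rank 4440, lay 898 bp from the first start and 642 bp from an internal start, not far beyond the promoter window.

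E2f1, a gene of 40568 bp, held 10 intronic summits. The strongest ranked 1192 with a signal of 480.1 (1227, 1154 and 1408 in the libraries), 19140 bp from the first start on 3R from 21641548 to 21641885. The other 9 ranked between 2476 and 6484. Among the strongest peaks of replicates 1, 2 and 3, E2f1 held 9, 11 and 11 such summits, so the libraries gave like counts. Of the 10 summits, 8 lay in the strongest list of all 3 libraries and 2 in those of 2 libraries. The density was 2.46 summits per 10 kb, where the 1039 genes longer than 20000 bp had a median of 0.277. Of these long genes, 20 (1.92%), with E2f1 itself counted, were at least as dense. E2f1 was described at this length after its values were seen.

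**Figure D4:**
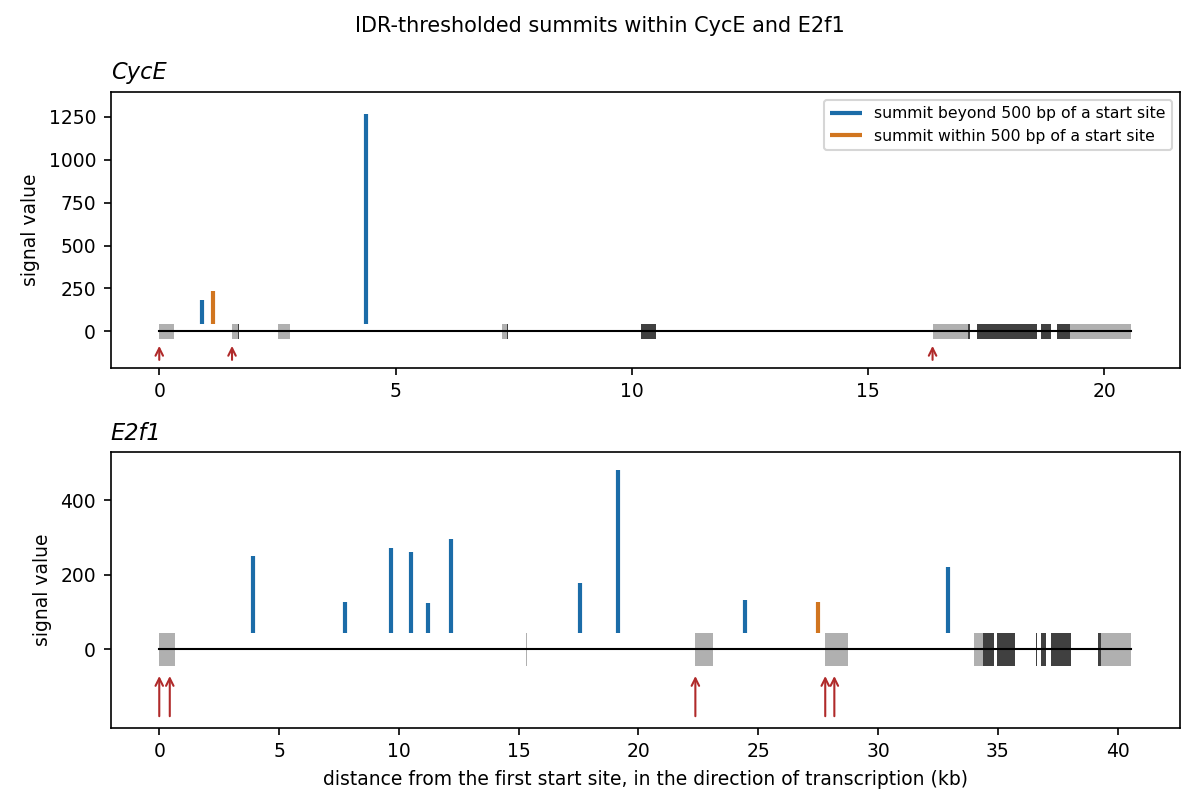
IDR-thresholded summits within CycE and E2f1, by distance from the first start site in the direction of transcription (kb). The height of each line is the authors' signal value, blue lines lie beyond 500 bp of a start site and orange lines within it, arrows mark start sites, dark boxes coding sequence and grey boxes other exon sequence. CycE has a summit of signal 1267 in an intron, and E2f1 has 10 blue lines along its introns.

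The BEAF core was the most frequent of the 6 motifs at these summits, as it was over all promoter summits. It is shorter than the DRE, the E2F site, CHR and Ohler motif 7. The DRE, bound by Dref and named for its role at replication genes, was within 50 bp of none of the 16 strongest promoter summits, against 3.69% of 3223 promoter summits. The BEAF core was found at 6 genes (Mcm5, geminin, CycB, CycE, polo and Rbf), against 22.6%. An E2F site lay at 1, Orc1, against 1.64%. CHR, a site of cell cycle promoters best known from mammals, lay at 3 (CycE, polo and aurA), against 18.2%. Ohler motif 7 lay at CycB, against 5.03%, and Ohler motif 1 at none, against 0.9%.

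The promoters of all 30 genes were searched as well. From 250 bp before to 50 bp after the first start site, 9 of the 30 genes had an E2F site, against 6.43% of protein-coding genes, and 8 of these 9 were licensing genes. Those with a promoter peak were Mcm2, Mcm5 and Orc1. Those without were Mcm3, Mcm6, Orc4, Orc5, Orc6 and stg. An E2F site was thus present at 3 of 16 genes with a peak and 6 of 14 without, and over protein-coding genes the shares were 6.98% with a peak and 6.23% without.

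The DRE was in the promoters of 5 of the 30 genes (16.7%), against 9.36% of protein-coding genes. All 5 were genes without a promoter peak: Orc2, Orc5, PCNA, CycA and Cdk2. Over protein-coding genes the order was the other way, with a DRE in 14.6% of those with a peak and 7.48% of those without. The split among the 30 genes depends on the IDR threshold. In the pooled list Orc5 (q = 0.0456) and Cdk2 (q = 0.000194) passed the q value at 0.05. Their pooled summits lay 39 and 58 bp upstream of the start, and their DREs 70 and 61 bp upstream. Orc2 (q = 0.000382 in replicate 1) and PCNA (q = 0.0352 in replicate 3) passed the q value in 1 library each. Of all genes, 38.3% and 29.0% did so in replicates 1 and 3. CycA had no summit in the window in any library. The BEAF core was in 6 of 16 promoters with a peak and 10 of 14 without, next to 56.4% and 44.1% of protein-coding genes. Ohler motif 7 was in 4 of 16 and 6 of 14, next to 17.7% and 6.89%. CHR was in 7 of 16 and 9 of 14, next to 42.1% and 40.2%, and Ohler motif 1 in 3 of 16 and 3 of 14, next to 6.71% and 3.7%. For each of the 6 motifs, the share among the 30 genes was lower with a peak than without, opposite to the order among protein-coding genes. The window took the first start site of each gene alone, and the strongest promoter summit lay outside it at 8 of the 16 genes: dup, geminin, CycE, polo, fzr, E2f1, Dp and Rbf. For these 8 the promoter searched did not hold the strongest summit, and the part of this in the comparisons above was not tested.

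A DRE site of Orc2, Orc5 and CycA is shown because CG31627 had no promoter peak at these genes. They were chosen after the values were seen. Each stretch is 68 bases around the DRE on the strand of the gene, from the RefSeq Release 6 genome (dm6), with all motif matches in capitals. The first Orc2 site, 201 bp upstream of the first start, is in chr3R:13964654-13964721 on the plus strand. The Orc5 site, 70 bp upstream, is in chr2L:13829737-13829804 on the plus strand, and also holds a CHR match. The CycA site, 11 bp upstream, is in chr3L:11833552-11833619 on the minus strand, and is followed by a match to Ohler motif 7. The DRE of Cdk2, 61 bp upstream, stands in the Cdk2 window above. A second Orc2 DRE, just downstream of the start, and the PCNA DRE, 27 bp upstream, are not shown.
Orc2: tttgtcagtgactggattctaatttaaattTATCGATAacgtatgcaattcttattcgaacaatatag
Orc5: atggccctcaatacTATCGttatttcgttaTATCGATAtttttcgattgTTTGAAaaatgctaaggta
CycA: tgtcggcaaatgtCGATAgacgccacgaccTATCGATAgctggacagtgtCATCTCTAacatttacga

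**Figure D5:**
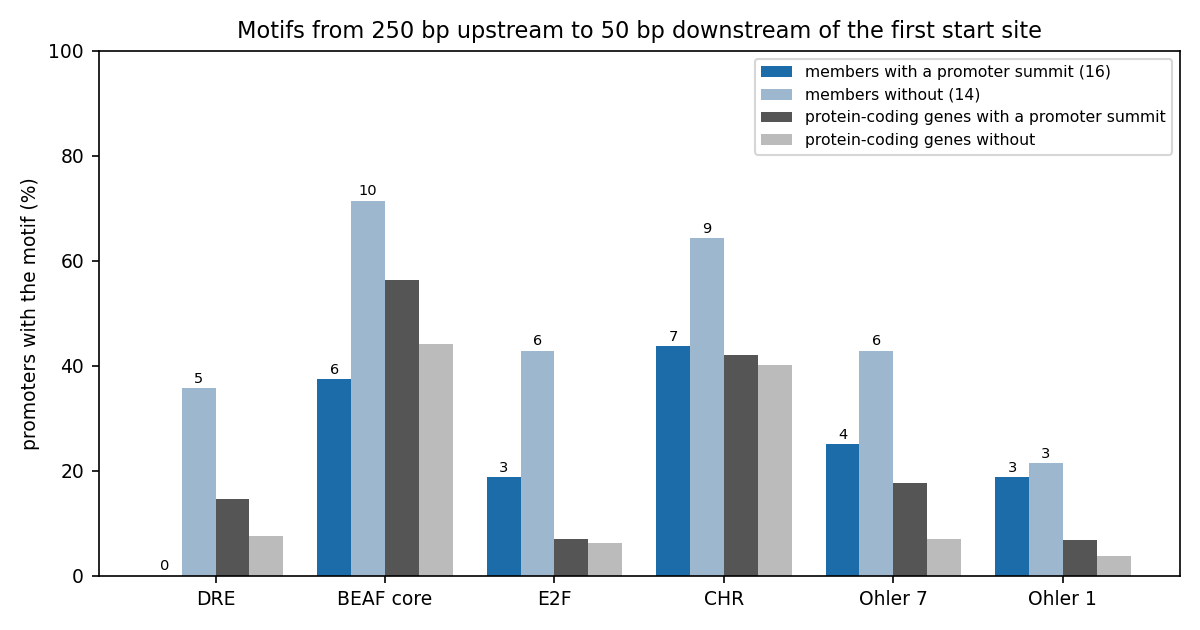
Share of promoters (%, from 250 bp before to 50 bp after the first start site) that hold each of the 6 motifs, for the 16 genes with a promoter peak, the 14 without, and protein-coding genes with and without; numbers above the bars count genes of the 30. The DRE bar is at 0 for the 16 genes and at 5 genes for the 14, while among protein-coding genes it is higher for those with a peak.

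Other genes of the same pathways, 86 in 9 lists drawn from pathway knowledge, carried a promoter peak in 38 cases (44.2%), against 22.3% of all genes. The libraries gave 35, 33 and 38 (40.7%, 38.4% and 44.2%), and 28 of the 38 were counted in every library. Of the licensing genes outside the 30, 1 of 4 carried a peak (25.0%, close to the share of all genes). It was dpa, which encodes Mcm4, at rank 621 (652, 367 and 975). Orc3, the remaining origin recognition complex subunit named here, had none. With dpa, 3 of the 6 Mcm helicase genes carried a promoter peak, and 1 of the 6 origin recognition complex genes did.

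Genes that act at or after origin firing were counted in the same way. Of 8 genes that activate the helicase, 4 carried a peak, led by chif, the fly Dbf4 (rank 1255), the GINS subunit gene Psf1 (3010) and the kinase gene Cdc7 (3856). At the replication fork it was 8 of 19, led by the polymerase delta subunit gene PolD2 (rank 534), RPA1 (1028, the peak shared with Mcm2) and RnrS, for a ribonucleotide reductase subunit (1405). Of 12 further genes of the CDK network, 3 carried one, namely the CDK-activating kinase genes Cdk7 (4313) and CycH (4744), and ago (4897), which targets cyclin E for degradation. This was the lowest share of the lists of 10 or more genes. At 25.0% it lay close to the background of 22.3% of all genes and 26.4% of protein-coding genes.

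Partners of the E2F group carried a peak in 5 of 8 cases, led by Rbf2 (rank 403), E2f2 (5118) and mip40 (6714), genes of the complex that represses E2F targets. Of these 5, Rbf2 alone was counted in every library. Of 10 anaphase-promoting complex genes, 3 did: Cdc16 (1672), APC4 (5237) and lmgA (6160). Checkpoint and passenger complex genes carried a peak in 7 of 13 cases. They were led by the checkpoint kinase gene lok (1950), Bub3 (1987) and Incenp (2257), which encodes the partner of Aurora B. Chromosome structure genes did in 5 of 10, led by the condensin genes SMC2 (519), barr (1950) and Cap-D2 (1987). The lok and barr peaks are the same, as are those of Bub3 and Cap-D2, so these genes are not separate observations. Among the pathway genes named here and above, another gene started nearer to the summit at Psf1, RPA1, Cdk7, Rbf2, E2f2, lok, Bub3 and Incenp. The Rbf2 summit lay 21 bp from the start of CG32856 and 116 bp from that of Rbf2. The E2f2 summit lay 12 bp from the start of Mpp6 and 68 bp from that of E2f2. Dref and BEAF-32, whose products bind the DRE and the BEAF core, both carried a peak, at ranks 1732 and 1451.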

How the data were processed

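The peak lists were used as the authors deposited them, in narrowPeak form on dm6: 1 list for each of the 3 libraries, 1 for the libraries pooled and the IDR-thresholded list. Chromatin was sheared by sonication to 200 to 800 bp, per the labels. Signal values are the authors', deposited on a scale that the sources used here do not give, and ranked peaks within a list only. The q value is deposited as −log10. The aligner, the caller and whether the line kept its untagged gene were not given in the sources used here. Lists on dm3 were not used.

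Summits were compared with the start sites of 18164 genes on the 6 arms in Ensembl release 115, whose arm names and lengths are those of dm6. Summits within a gene but over 500 bp from its start sites counted as within the gene. Libraries were numbered as in the labels, and no line was shared between their lists. Means and SD are over the 3 libraries, whose depth is unknown. No enrichment test was run, because the 30 genes and the lists of pathway genes were chosen with earlier results of these data known. Named pathway genes were dpa, Orc3 and up to 3 per list with the strongest promoter peak. Sequences were those of the 8 genes with the strongest promoter peak off arm 2R, apart from polo, and of Cdk2. The assignment of summits was tested on simulated data, with a summit placed at each of 4000 genes. All 1985 genes whose summit was placed within 500 bp were recovered. This checks the computation and not whether a peak belongs to a gene. Alternatives were other windows (250 and 1000 bp), the 3858 strongest peaks, pooled peaks with q of 0.05 or less, interval overlap, the first start site alone, wider motif windows and leaving out each replicate. Python 3.11.15, pandas 2.3.3, numpy 2.4.6 and matplotlib 3.10.9 were used.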

Additional observations from a re-analysis of the deposited data

How the results depend on the processing

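The count of 16 of the 30 genes was 12 with a 250 bp window (17.3% of all genes), without CycE, fzr, E2f1 and Rbf. It was 17 with 1000 bp (27.0%) or by overlap of the peak interval (24.2%), both adding stg, and 14 at the first start site alone (20.4%), without CycE and E2f1. Pooled peaks with q of 0.05 or less gave 21 (31.3%), adding Orc4, Orc5, CycB3, CycD and Cdk2. Among the 3858 strongest peaks it was 8 (26.7%), while the count over all genes fell from 4048 to 2388 (13.1%). These 8 were 3 licensing genes and 1 each of cyclins, CDKs, mitotic kinases, CDK regulators and E2F and retinoblastoma genes. Of the 86 pathway genes, 20 were counted there. The members' share stood above that of all genes under each of these.

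Requiring a strong peak in both other libraries gave 13 genes without replicate 1 (18.3% of all genes; Orc1, CycB and E2f1 lost), 13 without replicate 2 (19.6%; aurB, E2f1 and Rbf lost) and 11 without replicate 3 (18.0%; Orc1, CycB, aurB, E2f1 and Rbf lost). Licensing genes ranged from 4 to 5, cyclins from 1 to 2, mitotic kinases from 2 to 3 and E2F and retinoblastoma genes from 1 to 2, while CDKs stayed at 1 and CDK regulators at 2. With the 250 bp window, cyclins, CDK regulators and E2F and retinoblastoma genes numbered 1 each. With the first start site alone there was 1 cyclin. Pooled peaks with q of 0.05 or less gave 4 cyclins and 2 CDKs. Per library, the count was 23, 14 and 22 with q of 0.05 or less, next to 38.3%, 21.8% and 29.0% of all genes.

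Motif counts moved with the width searched. Within 100 bp of the summit, E2F sites lay at 2 of the 16 genes (3.48% of all promoter summits), CHR at 7 (32.5%) and Ohler motif 1 at 1 (2.2%). In the whole peak interval the BEAF core lay at 10 genes (51.3%), E2F sites at 3 (6.95%), CHR at 8 (44.0%), Ohler motif 7 at 2 (15.8%) and Ohler motif 1 at 4 (3.91%). The DRE stayed at 0 (7.48% and 10.5%). A wider search holds more bases. Motifs were searched around the summits of the 16 genes in the IDR-thresholded list alone. Orc5 and Cdk2, which pooled peaks with q of 0.05 or less would add, were not searched in this way. Their pooled summits lay 39 and 58 bp upstream, with DREs 70 and 61 bp upstream. No paired analysis was possible because the libraries form a single group.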
